A study of Mus musculus with 21 samples.

Results

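The mitochondrial genome of the mouse is a small circular DNA, kept in many copies inside the mitochondrion and transcribed there by its own polymerase. The genes described here are all those that the count files place on this molecule (chromosome MT), 35 of the 49315 genes listed. They are the 13 protein genes and the 22 tRNA genes. The annotation also holds 2 ribosomal RNA genes on MT, which are not analysed here. Counts were made from total RNA of mouse epidermal sheets after depletion of ribosomal RNA. The comparison is between 3 libraries from 6-month-old mice labelled K14CreTfap2afl/flTfap2bfl/fl (double cKO below) and 3 libraries from 6-month-old mice labelled as the strain-specific control, with the genotype given as WT. The double cKO carries floxed alleles of both Tfap2a and Tfap2b, which encode AP-2α and AP-2β, a pair of related transcription factors, and a Cre recombinase under the keratin 14 promoter, which is active in basal keratinocytes. That promoter limits the model to epithelial cells, so other cells of the sheet keep both genes. The labels give no further detail of the control's alleles and do not say whether the 3 libraries of a group come from separate animals, so each p-value below measures the spread between these libraries. The question the comparison addresses is what loss of both factors does to RNA levels in adult epidermis. Of the 21 files, in 7 groups of 3, 13 hold only zeros, and 2 libraries from 3-week-old K14CreTfap2bfl/fl mice (Tfap2b cKO below) hold counts but have no control of their age with counts.

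The 13 proteins are subunits of the oxidative phosphorylation complexes in the inner mitochondrial membrane. Complex I takes electrons from NADH, complex III passes them to cytochrome c, complex IV gives them to oxygen, and complex V uses the proton gradient to make ATP. All other subunits, and every protein that copies, transcribes or translates the mitochondrial genome, come from nuclear genes. Both strands are transcribed as long precursors, in which tRNAs lie between the protein genes and are cut out to release the mRNAs. Copies of mitochondrial DNA have also entered the nuclear genome over evolution, and reads from the original and from a recent copy can be the same.

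Such a copy covers several of these genes, so 3 of them are shown first beside their pseudogene on mouse chromosome 1. The sequences are from the GENCODE M21 transcripts on GRCm38, 5′ to 3′ on the strand of each gene, with a base that differs in capitals. The stretch of mt-Co2 is at MT:7013-7072 on the plus strand, that of mt-Nd3 at MT:9459-9518 and that of mt-Co1 at MT:6390-6449. The pseudogene stretches lie on the minus strand, Gm28661 at chr1:24615506-24615565, Gm28438 at chr1:24613060-24613119 and Gm29216 at chr1:24616129-24616188.
mt-Co2: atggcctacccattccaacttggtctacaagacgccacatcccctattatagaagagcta
Gm28661: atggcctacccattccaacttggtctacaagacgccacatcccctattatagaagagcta
mt-Nd3: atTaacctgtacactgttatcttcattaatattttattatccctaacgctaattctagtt
Gm28438: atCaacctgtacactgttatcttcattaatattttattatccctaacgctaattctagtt
mt-Co1: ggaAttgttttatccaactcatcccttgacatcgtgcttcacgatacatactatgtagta
Gm29216: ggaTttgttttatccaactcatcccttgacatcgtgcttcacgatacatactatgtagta
The mt-Co2 stretch and its copy are the same in all 60 bases. The mt-Nd3 stretch differs by T3C and the mt-Co1 stretch by A1066T, with positions counted from 1 at the first base of the mitochondrial gene and the mitochondrial base written first. Over the whole alignment, mt-Co2 and Gm28661 have 0 mismatches in 681 bases, mt-Nd3 and Gm28438 have 1 in 345, and mt-Co1 and Gm29216 have 1 in 483.

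The other sequences are the 6 tRNA genes with enough counts to be tested, since their place in the genome is part of what the counts show. They are the DNA of the gene strand in the same annotation, with the anticodon in capitals. The genes mt-Tl1 at MT:2676-2750 and mt-Tm at MT:3845-3913 lie on the plus strand. On the minus strand are mt-Tn at MT:5089-5159, mt-Tc at MT:5192-5257, mt-Te at MT:14071-14139 and mt-Tp at MT:15356-15422.
mt-Tl1: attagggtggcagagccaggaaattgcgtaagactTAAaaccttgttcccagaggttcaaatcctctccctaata
mt-Tm: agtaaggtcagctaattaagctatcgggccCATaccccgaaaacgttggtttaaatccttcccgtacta
mt-Tn: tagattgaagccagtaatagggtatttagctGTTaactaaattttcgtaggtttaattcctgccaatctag
mt-Tc: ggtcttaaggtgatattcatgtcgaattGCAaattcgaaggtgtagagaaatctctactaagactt
mt-Te: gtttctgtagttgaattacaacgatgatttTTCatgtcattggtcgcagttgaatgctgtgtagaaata
mt-Tp: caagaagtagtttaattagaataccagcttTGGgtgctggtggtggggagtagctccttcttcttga
They carry leucine, methionine, asparagine, cysteine, glutamate and proline in this order. Each is 66 to 75 bases long, shorter than a sequencing read of 150 bases.

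The 8 libraries with counts held 11318181 to 17746284 counts each. Control replicates 1 and 2 stand apart from the other 6 libraries, with 35794 and 39362 genes detected against 23454 to 25537. Genes of smell and pheromone receptors, which skin should hardly express, had 1.63 and 3.26 counts per kb there and 0.0994 to 0.199 elsewhere. Tfap2a did not fall in libraries labelled double cKO, at 172 ± 35.4 CPM in the control and 250 ± 51.6 CPM in the double cKO (SD, n = 3), and Tfap2b was at 71.6 ± 14.7 and 56.0 ± 1.87 CPM. The floxed exons alone were not measured, so these counts do not check the deletion. Markers of basal keratinocytes summed to 9383 to 11974 CPM in the controls, against 17677 to 21053 CPM in the double cKO, and 6 of the 8 rose. Krt15 of this list went the other way, lower in each double cKO library than in every control (log2 fold change -1.39, adjusted p = 0.0513 by edgeR). Markers of stressed keratinocytes summed to 466 to 730 and 3500 to 4680 CPM, with 4 of 8 rising. Fibroblast markers summed to 53.0 to 157 and 11.7 to 23.0 CPM, with 3 of 6 falling, and sebaceous markers to 737 to 898 and 187 to 233 CPM, with 2 of 5 tested falling. Most of the sebaceous sum was Scd1, at 718, 848 and 775 CPM in the controls, against 186, 224 and 168 CPM in the double cKO. Plin2 also fell, Elovl3 and Fa2h overlap between the groups, and Awat2 was higher in each double cKO library (0.58, not called). Over all genes tested, 6.26% rose and 8.59% fell at an adjusted p under 0.05 by edgeR. These lists move with the comparison, and their part in the results below was not tested. In bulk samples, fewer cells of a type and less RNA per cell cannot be told apart.

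Mitochondrial genes together held 2.10% to 4.10% of the counts of a library. In CPM (counts of a gene divided by the library total, times 1e+06), their sum was 21004, 32216 and 23463 in control replicates 1 to 3. In the double cKO it was 33672, 25688 and 31316. The double cKO libraries were higher on average and the groups overlap, since control replicate 2 was above 2 of the 3 double cKO libraries. The means were 25561 ± 5893 and 30225 ± 4102 CPM (SD, n = 3), a difference of 4664 CPM with p = 0.3 in an exact permutation test (two-sided). The difference was 2386 CPM without control replicate 1, 7992 CPM without control replicate 2 and 2941 CPM without double cKO replicate 1. The smallest p that 3 against 3 can give is 0.1.

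**Figure D1:**
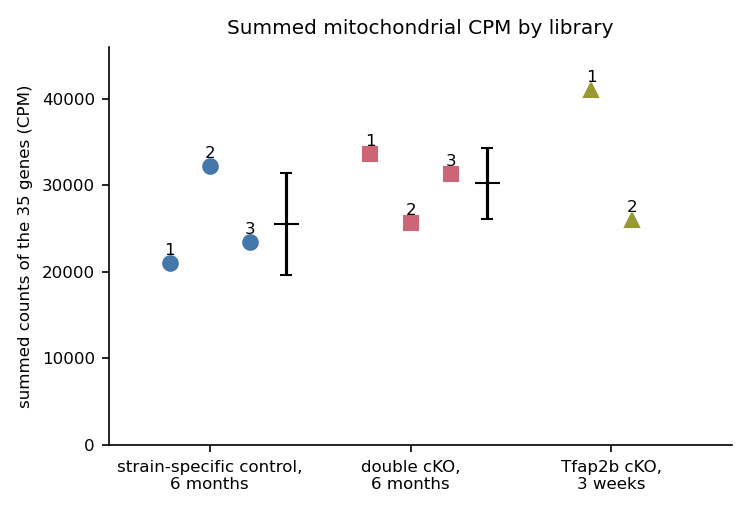
Summed CPM of the 35 mitochondrial genes (vertical axis) in each library with counts, by group (horizontal axis). Numbers are replicates, and the horizontal dash with bars is the mean ± SD of the groups of 3. The control libraries span 21004 to 32216 CPM and the double cKO libraries 25688 to 33672 CPM.

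The protein genes fell into a set of 7 with high counts and a set of 6 with almost none. The genes mt-Nd1, mt-Nd2, mt-Co1, mt-Nd4, mt-Nd5, mt-Nd6 and mt-Cytb had 6640 to 261619 counts per library and made up 99.56% to 99.85% of all mitochondrial counts. The genes mt-Co2, mt-Atp8, mt-Atp6, mt-Co3, mt-Nd3 and mt-Nd4l had 3 to 100 counts per library. These 6 lie next to each other in the genome, from MT:7013 to MT:10173, and encode the remaining subunits of complexes I and IV and both mitochondrial subunits of complex V.

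Per length, mt-Co1, the catalytic subunit of complex IV, had the highest level in every one of the 8 libraries, at 6544 to 10364 CPM per kb in the 6 libraries of the comparison. The next was mt-Nd1, a membrane subunit of complex I, at 3534 to 6080 CPM per kb. Then came mt-Cytb, the only mitochondrial subunit of complex III, at 1436 to 2984 CPM per kb. These first 3 places were the same in all 6 libraries, although the ranges of mt-Cytb and mt-Nd1 are apart and that of mt-Cytb meets those of the genes after it. The complex I subunits mt-Nd2, mt-Nd4, mt-Nd5 and mt-Nd6 lay at 1193 to 2215, 1049 to 1921, 1168 to 1811 and 1096 to 1700 CPM per kb. Their order changed from library to library, and their ranges overlap. In the 6 low-count neighbours the level per length was 0.610 to 21.3 CPM per kb in the same libraries. The protein of mt-Co2 and that of mt-Co3 are core subunits of the same complex as mt-Co1, but mt-Co2 was at 0.666 to 1.42 and mt-Co3 at 1.01 to 3.04 CPM per kb.

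**Figure D2:**
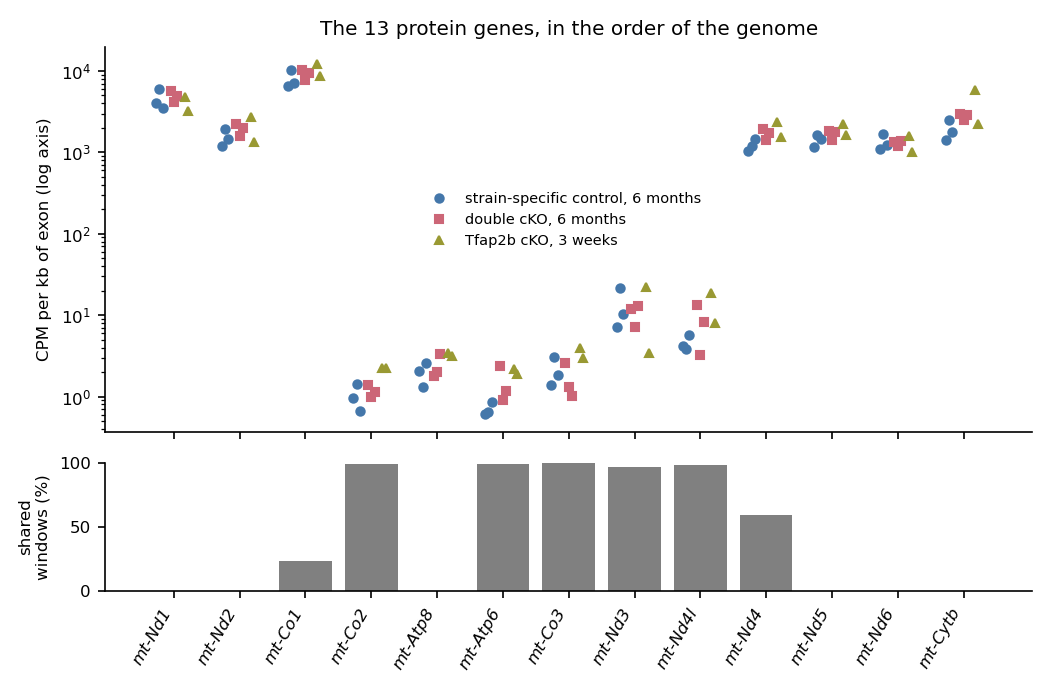
CPM per kb of exon (upper vertical axis, log scale) of the 13 protein genes in the order of the genome (horizontal axis), with 1 point per library, and the percent of 150-base windows of each gene found exactly in a nuclear transcript (lower vertical axis). The genes with 97.0% to 99.8% shared windows and mt-Atp8 between them lie at 22.2 CPM per kb or less, while the other 7 lie at 1023 CPM per kb or more.

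The low set matches the part of the mitochondrial genome that is copied on chromosome 1. Each protein gene was cut into all its windows of 150 bases, and a window was counted as shared if the same letters occur in an annotated nuclear transcript. The share was 99.4% for mt-Co2, 99.4% for mt-Atp6, 99.8% for mt-Co3, 97.0% for mt-Nd3 and 98.0% for mt-Nd4l. It was 59.2% for mt-Nd4, 23.6% for mt-Co1 and 0% for mt-Nd1, mt-Nd2, mt-Nd5, mt-Nd6 and mt-Cytb. For mt-Atp8, 0 of 55 windows were shared, but the place on chromosome 1 where its copy would lie has no annotated transcript, and the genome sequence was not used here.

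The copy is a run of 7 pseudogenes on the minus strand at chr1:24611535-24616197, a span of 4663 bases. In their order they match mt-Nd4 (Gm28439), mt-Nd4l (Gm10222), mt-Nd3 (Gm28438), mt-Co3 (Gm28437), mt-Atp6 (Gm10925), mt-Co2 (Gm28661) and the end of mt-Co1 (Gm29216), as the genes stand in the mitochondrial genome. Gm28439, Gm10222, Gm28437, Gm10925 and Gm28661 have 0 mismatches. Together the 7 pseudogenes had 116, 166 and 163 counts in the controls, against 212, 135 and 227 in the double cKO. The 9 other nuclear pseudogenes found by alignment, at 90.7% identity or more over at least 100 bases, had 21 to 116 counts per library, and the highest of these sums was in control replicate 2. How reads with several equal matches were counted is not given in the sources used here, so the levels of the 6 low genes and of these pseudogenes are uncertain, and the low counts give no estimate of these transcripts. The part of multiple matches in the low counts was not tested.

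The shared windows also touch mt-Nd4 and mt-Co1. Divided by unshared windows instead of length, mt-Nd4 had 2881 to 5274 CPM per 1000 windows, above mt-Cytb at 1651 to 3430 in every one of the 6 libraries, whereas per kb mt-Nd4 was below it in each. The place of mt-Nd4 in the order thus depends on this correction, while mt-Co1 stayed first, at 9484 to 15020 CPM per 1000 windows.

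Enough counts for the test across genes were found for 17 of the 35 genes, 11 protein genes and 6 tRNA genes. None of the 17 was called at an adjusted p of 0.05 in edgeR's quasi-likelihood test, against a background of 14.9% of the 17755 genes tested, 6.26% higher and 8.59% lower. An unadjusted p under 0.05 was found for 2 of them (mt-Nd4 and mt-Cytb), DESeq2 called 1 (mt-Cytb) and limma-voom called 0. The fitted log2 fold change was above 0 for 9 and below 0 for 8, with a median of 0.04, beside -0.04 over all genes tested. The 17 include mt-Co2, mt-Co3, mt-Nd3 and mt-Nd4l, whose low counts give no estimate of these transcripts. Of the 7 abundant protein genes only mt-Nd6 was below 0 (-0.11), and the others ran from 0.04 (mt-Nd1) to 0.48 (mt-Cytb). Of the 17, 15 were above 0 without control replicate 2, and 7 without control replicate 1 or without control replicate 3. In CPM the groups did not overlap for 1 of the 17 (mt-Cytb), against 38.7% of all genes tested. The genes that were not tested are mt-Atp8, mt-Atp6 and 16 tRNA genes.

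In complex III, mt-Cytb had the lowest adjusted p of the tested mitochondrial genes. It was at 1643, 2818 and 2059 CPM in the controls, against 3413, 2818 and 3325 CPM in the double cKO. The highest control and the lowest double cKO library thus had the same rounded value, and the groups only touch. The log2 fold change was 0.48 (SE 0.20, 95% interval 0.04 to 0.91, adjusted p = 0.128 by edgeR). Its call turned in 3 alternatives. It passed with no filter on low counts (0.59), in DESeq2 (0.53) and without control replicate 2 (0.71).

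Of the complex I genes none was called, and only mt-Nd3 and mt-Nd6 had fitted values below 0, both within 1 SE of it. The low-count genes mt-Nd4l and mt-Nd3 had log2 fold changes of 0.71 (95% interval -0.53 to 2.06) and -0.33 (95% interval -1.37 to 0.69). mt-Nd4 was at 1446, 1636 and 2004 CPM in the controls, against 2648, 1952 and 2381 CPM in the double cKO. The groups overlap through double cKO replicate 2, and the log2 fold change was 0.38 (95% interval 0.01 to 0.75, adjusted p = 0.143 by edgeR). It passed with no filter (0.49) and without control replicate 3 (0.60). mt-Nd2 was at 1238, 2010 and 1522 CPM in the controls, against 2299, 1669 and 2076 CPM in the double cKO, a log2 fold change of 0.27 (SE 0.20). The log2 fold changes of mt-Nd5 (0.17, SE 0.17) and mt-Nd1 (0.04, SE 0.22) were within about 1 SE of 0. mt-Nd6 was the only one of the abundant genes with a fitted value below 0.

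mt-Nd6 is the only protein gene on the minus strand. It was at 569, 882 and 637 CPM in the controls, against 703, 622 and 710 CPM in the double cKO. The double cKO libraries all lay within the range of the controls, and the log2 fold change was -0.11 (95% interval -0.50 to 0.27). Whether the counting used strand is not given in the sources used here. Reads of mt-Nd6 and of the precursor of the other strand therefore cannot be told apart. It also shares 14 bases with mt-Nd5.

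In complex IV, mt-Co1 was at 10110, 16012 and 11144 CPM in the controls, against 15754, 12017 and 14742 CPM in the double cKO. The groups overlap, and the log2 fold change was 0.11 (95% interval -0.33 to 0.56, adjusted p = 0.726 by edgeR). The intervals of mt-Co2 (-1.30 to 1.58) and mt-Co3 (-1.77 to 0.90) on the log2 scale are wide, since they rest on 7 to 28 counts per library. In complex V, mt-Atp6 had 5, 5 and 9 counts in the controls, against 22, 9 and 14 in the double cKO, and mt-Atp8 had 5, 3 and 8 against 5, 6 and 12. In CPM, mt-Atp6 was at 0.415, 0.442 and 0.586 in the controls and at 1.59, 0.614 and 0.789 in the double cKO, each above every control, although the closest libraries had 9 counts each. Neither complex V gene had enough counts to be tested.

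**Figure D3:**
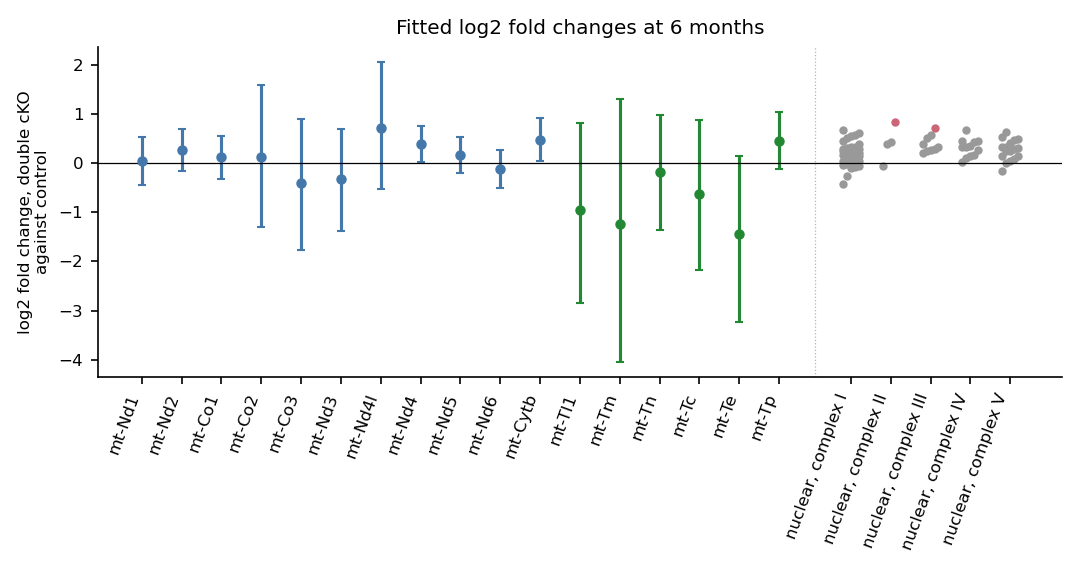
Fitted log2 fold change of the double cKO against the control at 6 months (vertical axis) for the 11 protein genes (blue) and 6 tRNA genes (green) tested, with 95% intervals, and for the 78 nuclear subunit genes of complexes I to V, 1 point per gene (grey, or red for the 2 past an adjusted p of 0.05). Intervals of mt-Nd4 and mt-Cytb lie just above 0, and 69 of the 78 nuclear points lie above 0.

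Shares within the mitochondrial counts do not depend on how libraries are scaled, and they were compared for the 7 abundant protein genes. The groups did not overlap for 4 of the 7, with 2 higher and 2 lower in the double cKO. The other mitochondrial genes tested all overlap in share, which makes it 4 of the 17 tested. Over all 17755 genes tested, the ratio to the summed mitochondrial counts did not overlap for 25.1%, 7.11% higher and 18.0% lower. Each of the 4 has p = 0.1 in an exact permutation test (two-sided), the smallest possible, so none can pass 0.05. The shares of 1 library add up to 100%, so a higher share of 1 gene lowers the others.

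The share of mt-Cytb was 7.82%, 8.75% and 8.78% in the controls, against 10.1%, 10.97% and 10.6% in the double cKO. All 3 double cKO libraries were above all 3 controls, and the difference of the means was 2.13 percentage points. Leaving out any 1 library gave 1.81 to 2.35 points. The share of mt-Nd2 was 5.89%, 6.24% and 6.49% in the controls, against 6.83%, 6.50% and 6.63% in the double cKO, a difference of 0.447 points with the closest libraries almost level.

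The share of mt-Nd6 was 2.71%, 2.74% and 2.72% in the controls, against 2.09%, 2.42% and 2.27% in the double cKO. The controls were close together, all double cKO libraries were below them, and the means were 2.72% ± 0.0158 and 2.26% ± 0.167 (SD, n = 3). The share of mt-Co1 was 48.1%, 49.7% and 47.5% in the controls, against 46.8%, 46.8% and 47.1% in the double cKO, so nearly 1 count in 2 was from this gene in each library. The shares of mt-Nd1 (16.9% ± 2.15 and 15.6% ± 0.610), mt-Nd4 (6.83% ± 1.73 and 7.69% ± 0.152) and mt-Nd5 (10.2% ± 1.12 and 10.1% ± 0.334) overlap between control and double cKO (SD, n = 3), with exact permutation p of 0.4, 0.5 and 0.9.

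mt-Nd6 and mt-Cytb lie on either side of mt-Te on opposite strands, and mt-Cytb had 2.89, 3.19 and 3.23 counts for each count of mt-Nd6 in the controls. In the double cKO the ratio was 4.85, 4.53 and 4.68, above every control. This pair was chosen after its values were seen and has no test. With all libraries scaled to the summed mitochondrial counts, edgeR called none of the 17 genes, against 14.8% of all genes tested. The log2 fold change of mt-Cytb was then 0.32 (95% interval -0.37 to 1.02) and that of mt-Nd6 was -0.27 (95% interval -0.94 to 0.40). The SEs of the 7 abundant genes in this fit were almost equal, from 0.34 (mt-Nd6) to 0.37 (mt-Co1). Their shares differed in spread, with an SD in the controls of 0.0158 points for mt-Nd6 and 2.15 points for mt-Nd1. These intervals thus do not follow the spread of each gene's own share between the libraries.

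**Figure D4:**
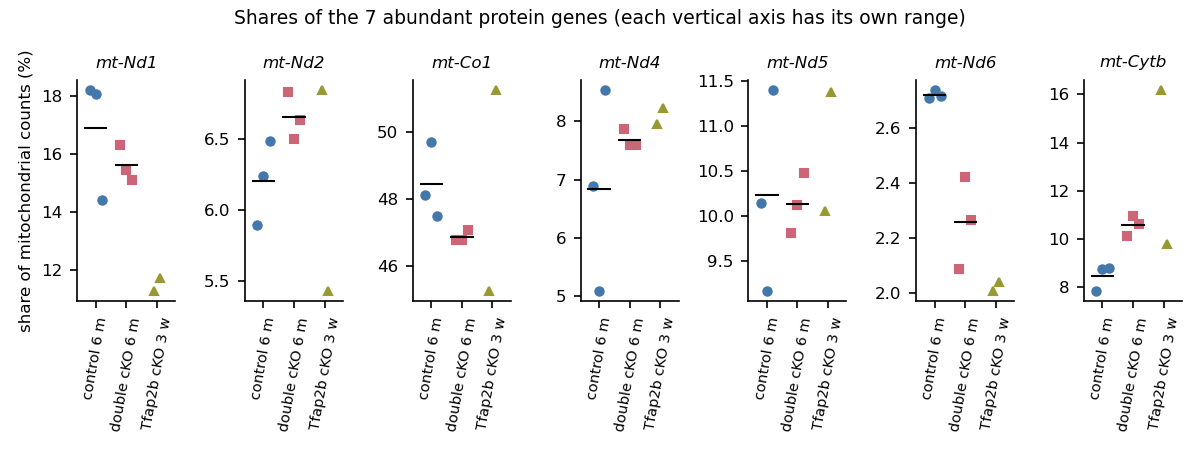
Share of all mitochondrial counts (vertical axis, percent, with a separate range for each gene) of the 7 abundant protein genes in each library, by group (horizontal axis), with the mean of the groups of 3 as a line. For mt-Cytb the controls lie at 7.82% to 8.78% and the double cKO at 10.1% to 10.97%, and for mt-Nd6 at 2.71% to 2.74% and 2.09% to 2.42%.

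The tRNA genes held 0.138% to 0.231% of mitochondrial counts in the controls, against 0.124% to 0.198% in the double cKO, which overlap (difference -0.0250 percentage points, exact permutation p = 0.6, two-sided). The protein genes held the rest, 99.8% ± 0.0465 and 99.8% ± 0.0374 (SD, n = 3). The tRNA counts were 462, 844 and 499 in the controls, against 724, 466 and 1102 in the double cKO. A read is longer than a tRNA, and the source of the counted fragments was not tested.

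Counts were very uneven among the 22 genes. mt-Tp had the most in every library, from 35.3% of tRNA counts in control replicate 2 to 82.6% in Tfap2b cKO replicate 2. mt-Tn held 9.66% to 15.8%, mt-Tc 3.04% to 13.4% and mt-Te 1.30% to 8.06%. Below mt-Tp the order changed between libraries, with mt-Tc (52 counts) above mt-Tn (45) in double cKO replicate 2 and mt-Tl1 (36) above mt-Te (19) in double cKO replicate 3. These 4 genes (mt-Tp, mt-Tn, mt-Tc and mt-Te), which had the most counts over the 8 libraries together, lie on the minus strand, and the 8 minus-strand tRNA genes held 90.5% of tRNA counts of the 8 libraries together. mt-Tp alone held 60.4%. Without mt-Tp, the minus-strand tRNA genes still summed above the plus-strand ones in each library. Since the use of strand in the counting is not given, these counts may come from RNA of either strand. On 1 side, the neighbourhoods of the 4 genes, which were picked by their counts, also differ from those of most tRNA genes. mt-Tp is the last annotated gene before the control region. Between mt-Tn and mt-Tc, on the same strand, lie 32 bases without a gene, and mt-Te is 5 bases from mt-Cytb. No other tRNA gene is more than 3 bases from its nearest gene on either side, apart from the start of the numbering at mt-Tf. On the other side, mt-Tp and mt-Te are 0 bases from a gene, and mt-Tn and mt-Tc are 2 bases from a gene. The part of these gaps in the counts was not tested. mt-Tf, on the other side of the control region, had 0 to 4 counts. mt-Td and mt-Tk had 0 counts in all 8 libraries, and 14 of the 22 genes never reached 25 counts.

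mt-Tp was at 18.3, 26.3 and 26.0 CPM in the controls, against 37.3, 22.2 and 42.5 CPM in the double cKO. The groups overlap through double cKO replicate 2, and the log2 fold change was 0.45 (95% interval -0.12 to 1.03, adjusted p = 0.25 by edgeR). mt-Te was at 2.41, 6.01 and 0.716 CPM in the controls, against 1.67, 0.545 and 1.07 CPM in the double cKO, a log2 fold change of -1.44 (95% interval -3.24 to 0.14, adjusted p = 0.188 by edgeR). Control replicate 3 was as low as the double cKO libraries, and without it mt-Te was called (-1.81), as was mt-Tv, which then had enough counts to be tested. Without control replicates 1 and 2 together, mt-Te was at 0.48.

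Control replicate 2 had the highest CPM of the 6 libraries for mt-Tl1, mt-Tm, mt-Tn, mt-Tc and mt-Te. mt-Tn was at 5.65, 11.6 and 3.26 CPM in the controls, against 6.59, 3.07 and 9.19 CPM in the double cKO, and mt-Tc at 2.99, 9.98 and 1.17 against 2.17, 3.55 and 3.72 CPM. The log2 fold changes of mt-Tl1 (-0.95), mt-Tm (-1.24), mt-Tn (-0.18) and mt-Tc (-0.63) had intervals that span 0, and all 4 turned above 0 without control replicate 2 (0.075, 0.99, 0.42 and 0.51). This is 1 of the 2 control libraries with many detected genes. Without mt-Tp, the tRNA genes had 242, 546 and 99 counts in the controls, against 209, 141 and 347 in the double cKO.

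**Figure D5:**
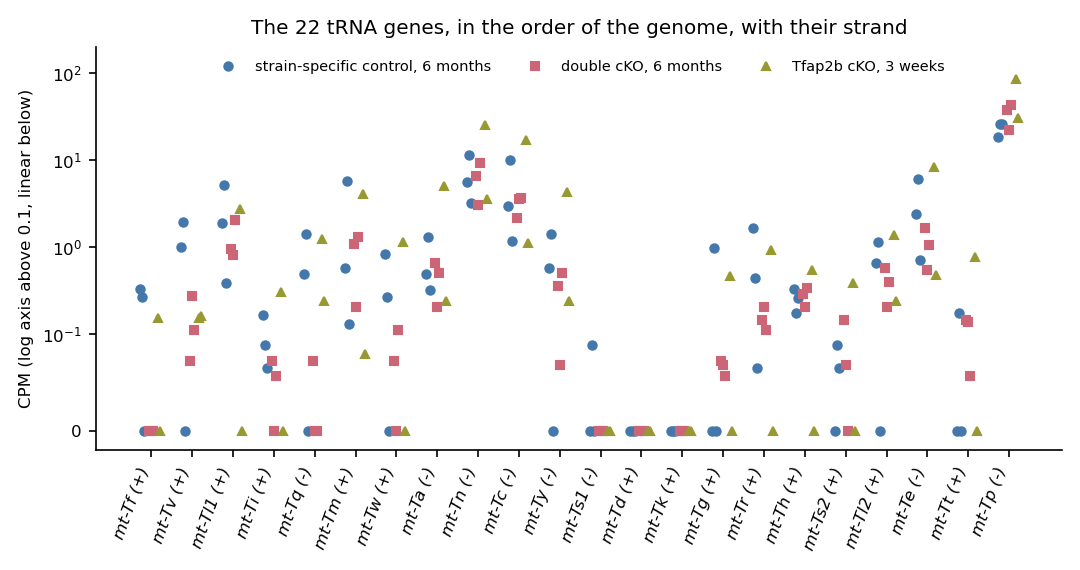
CPM (vertical axis, log scale above 0.1 and linear below) of the 22 tRNA genes in the order of the genome, with the strand in brackets (horizontal axis), and 1 point per library. mt-Tp is highest in each group, at 18.3 to 42.5 CPM in the 6 libraries at 6 months, and mt-Td and mt-Tk are at 0 in all 8 libraries.

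The nuclear genes of the same complexes were read from the same fit. Of 78 subunit genes tested, 2 rose and 0 fell (2.56% rose, against 6.26% of all genes), and the log2 fold change was above 0 for 69, with a median of 0.27 beside -0.04 over all genes. Sdhd, a membrane anchor of complex II, was at 13.5, 13.8 and 14.8 CPM in the controls, against 21.4, 24.8 and 33.4 CPM in the double cKO (log2 fold change 0.84, SE 0.21, adjusted p = 0.0294 by edgeR). Uqcrc1, a core subunit of complex III, was at 43.5, 64.4 and 64.2 against 89.0, 91.4 and 116.8 CPM (log2 fold change 0.71, SE 0.19, adjusted p = 0.0333 by edgeR). The median was 0.19 for the 36 genes of complex I, 0.41 for the 4 of complex II, 0.33 for the 9 of complex III, 0.32 for the 12 of complex IV and 0.28 for the 17 of complex V. The count of calls is not stable. It was 8 with no filter on low counts and 0 to 8 with 1 library left out, and 0 without control replicates 1 and 2.

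For each count of the nuclear subunit genes of complex III there were 7.08, 9.67 and 7.59 counts of mitochondrial subunit genes in the controls, against 9.96, 7.96 and 7.95 in the double cKO. The ratio was 19.3, 22.9 and 19.99 against 24.9, 16.1 and 19.3 for complex I, and 31.0, 43.3 and 39.3 against 43.3, 27.8 and 31.8 for complex IV. In each complex the groups overlap (exact permutation p of 0.5, 0.9 and 0.8, two-sided, n = 3), and double cKO replicate 1 had the highest ratio of its group.

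Among nuclear genes that maintain, transcribe and translate the mitochondrial genome or regulate the organelle, 198 were tested, 19 rose (9.60%, background 6.26%) and 6 fell (3.03%, background 8.59%). Of the 26 genes for mitochondrial DNA replication and transcription, 3 rose and 1 fell. Ssbp1, which coats single-stranded mitochondrial DNA, was at 6.31, 7.16 and 6.32 CPM in the controls, against 17.6, 14.04 and 13.02 CPM in the double cKO (log2 fold change 1.08, SE 0.23, adjusted p = 0.0144 by edgeR). Polg, the catalytic subunit of the DNA polymerase, rose (0.58), and so did Top1mt, a topoisomerase (0.84), while Polg2, the accessory subunit of the polymerase, fell by 1.30 on the log2 scale. The RNA polymerase gene Polrmt (0.67, adjusted p = 0.0989), the DNA packaging and transcription factor gene Tfam (0.35, adjusted p = 0.383) and Tfb2m, for promoter opening (0.23, adjusted p = 0.456), were not called by edgeR.

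Of 37 genes for processing or stability of mitochondrial RNA, 5 rose (13.5%, background 6.26%) and 0 fell. Fastk, the founding member of a family of mitochondrial RNA-binding proteins, was at 15.8, 16.4 and 19.1 CPM in the controls, against 34.3, 34.8 and 34.4 CPM in the double cKO, a log2 fold change of 0.93 (adjusted p = 0.00794 by edgeR). Ptcd2 (1.08), of the pentatricopeptide repeat family, and 1110008L16Rik (1.00) also rose. The mRNA-stabilising partners Lrpprc (0.31, adjusted p = 0.138) and Slirp (0.29, adjusted p = 0.595) were not called by edgeR. Of 77 mitochondrial ribosome genes 6 rose, which at 7.79% is near the background of 6.26%, and 0 fell. Those that rose include Mrps2 (1.18), Mrpl34 (1.31) and Mrpl36 (1.00), and 64 of the 77 had a log2 fold change above 0. Of 17 tRNA synthetase genes, Vars2 (0.92) and Rars2 (0.59) rose. Lars2, for leucine, was at 366.7, 528.5 and 71.0 CPM in the controls, against 333.9, 217.6 and 421.0 CPM in the double cKO, with control replicate 3 far below the other 2. It was fixed by name because it shares sequence with a mitochondrial ribosomal RNA gene. The part of such reads in its counts was not tested.

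Regulators moved in both directions. Of 15 tested genes for mitochondrial biogenesis, Gabpb2, a subunit of the nuclear respiratory factor NRF-2, rose (0.70), while Ppargc1a, the coactivator PGC-1α, and Sirt1, a deacetylase that acts on it, fell. In this list 6.67% thus rose (background 6.26%) and 13.3% fell (background 8.59%). Ppargc1a was at 4.24, 5.83 and 4.30 CPM in the controls, against 1.23, 1.23 and 1.24 CPM in the double cKO, a log2 fold change of -1.91 (SE 0.39, adjusted p = 0.0110 by edgeR). Nrf1 (0.26, adjusted p = 0.279) and Ppargc1b (0.57, adjusted p = 0.144) were not called by edgeR. Of 16 genes for mitochondrial dynamics and mitophagy, only Bcl2l13 rose (0.54), which at 6.25% is near the background of 6.26%.

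Of 10 tested genes of the mitochondrial stress response, 1 rose (10%, background 6.26%) and 2 fell (20%, background 8.59%). Atf5, a transcription factor of the mitochondrial unfolded protein response, was at 4.98, 5.12 and 5.79 CPM in the controls, against 23.8, 19.98 and 25.4 CPM in the double cKO, a log2 fold change of 2.02 (SE 0.21, adjusted p = 0.000729 by edgeR). Atf4, the central factor of the integrated stress response, was at 268.0, 196.8 and 160.8 against 102.4, 92.7 and 102.2 CPM, a log2 fold change of -1.15 (SE 0.19, adjusted p = 0.00545 by edgeR). Chac1, a target of ATF4, fell by 1.62 on the log2 scale. The calls of Atf5 and Atf4 held in all 17 alternatives. The other calls of nuclear genes named here were each lost in some of the 17, that of Top1mt in 11, Rars2 in 10, Polg and Mrpl34 in 9, Bcl2l13, Chac1, Sdhd, Uqcrc1 and Vars2 in 8, Sirt1 in 7, Ptcd2 in 6, Gabpb2 in 5, and the remaining ones in 1 to 4. Over the nuclear lists other than the subunit genes, the calls numbered 4 to 52 with 1 library left out.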

How the data were processed

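Total RNA from epidermal sheets was depleted of ribosomal RNA (QIAGEN FastSelect) and sequenced as paired-end reads of 150 bases on a NovaSeq instrument, per the labels' protocols. The deposited values are whole-number counts per gene, not normalized, per the file headers. The submitters' processing notes name Trimmomatic 0.36, STAR 2.5.2b, featureCounts, Subread 1.5.2 and the builds GRCh38 and GRCm38, with no roles. All 35 MT genes have the coordinates of GENCODE M21 (GRCm38). Samples were grouped by title. The members and lists were chosen with earlier results of these data known.

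Counts of the 6 libraries at 6 months were fitted together with edgeR 4.0.16 in R 4.3.3 (filterByExpr, TMM, robust quasi-likelihood fit, prior count 2). P-values were adjusted by Benjamini-Hochberg over all 17755 genes tested, and a gene was called at an adjusted p under 0.05. CPM used library totals without TMM. Single values were compared by exact permutation. The 7 abundant protein genes are those with a mean of at least 1000 counts. Nuclear genes named are up to 3 rises and 3 falls per list among called genes whose higher group averaged 5 CPM or more, plus a few fixed by name (Tfam, Polrmt, Tfb2m, Lrpprc, Slirp, Ppargc1a, Ppargc1b, Nrf1 and Lars2). One gene that this rule names is not reported here. Pseudogenes were found with blastn 2.17.0 at a minimum identity of 90% over 100 bases. Alternatives included DESeq2 1.42.0, limma-voom (limma 3.58.1), other scalings and filters, a replicate block and leaving libraries out. The scripts were tested on simulated data. Library totals of 11318181 to 17746284 counts limit precision for genes with few counts, and counting error is only part of the spread.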

Additional observations from a re-analysis of the deposited data

Results flagged for a closer look

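Both Tfap2b cKO libraries, from 3-week-old mice, lay outside the comparison, and some of their mitochondrial values were above all 3 control libraries at 6 months, and others below. Age and genotype both differ from those controls, no library of a 3-week control has counts, and no difference was tested. Xist, an RNA of the inactive X chromosome in female cells, was at 89.8 and 194 CPM in the Tfap2b cKO libraries. It was at 0.507 to 7.81 CPM in the 6 libraries at 6 months, and the part of sex was not tested.

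Tfap2b cKO replicate 1 had a summed mitochondrial level of 41017 CPM, above the 21004 to 32216 CPM of the controls, a tRNA share of 0.391%, above 0.138% to 0.231%, and an mt-Nd2 share of 6.84%, above 5.89% to 6.49%, whereas replicate 2 was below those controls in mt-Nd2 share, at 5.43%. Replicate 2 had an mt-Co1 share of 51.2%, above 47.5% to 49.7%, whereas replicate 1 was below them, at 45.3%. The share of mt-Cytb was above the 7.82% to 8.78% of the controls in both, at 16.2% in replicate 1 and 9.78% in replicate 2. Both were below the controls in the shares of mt-Nd1 (11.3% and 11.7%, controls 14.4% to 18.2%) and mt-Nd6 (2.01% and 2.04%, controls 2.71% to 2.74%).

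The 2 replicates differed from each other. Replicate 1 had summed fibroblast markers of 2556 CPM, adipocyte markers of 2054 CPM and endothelial markers of 404 CPM, against 17.3, 1.28 and 0.559 CPM in replicate 2. The part of these cells in its mitochondrial values was not tested.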

How the results depend on the processing

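The summed mitochondrial CPM, higher on average in the double cKO, kept its direction under the 3 other scalings run for it (3206 to 4923 CPM) and with 1 library left out (2386 to 7992 CPM). The tRNA share differed by -0.0478 to -0.00134 percentage points with 1 library left out. With 1 library left out, calls numbered 668 to 7544 genes against 2637, 0 to 3 mitochondrial genes against 0, 0 to 8 nuclear subunit genes against 2, and 4 to 52 genes of the other nuclear lists against 25. With no filter on low counts they numbered 4809, 2 (mt-Nd4 and mt-Cytb), 8 and 39. DESeq2 called 4173 genes and 1 mitochondrial gene (mt-Cytb). One fit of all 8 libraries called 1548, 0 nuclear subunit genes and 15 others. Without both control libraries with many detected genes, an alternative chosen after seeing the data, calls numbered 437, with 0 nuclear subunit genes and 2 others. Scaled to the mitochondrial sum, also chosen after seeing the data, 0 nuclear subunit genes and 9 others were called. Of called genes, 42.1% were higher, 50.9% with total counts and 16.8% scaled to the mitochondrial sum, and the last scaling set the median log2 fold change of all genes at -0.22.

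Same-numbered libraries did not deviate together (r = 0.014, -0.166 and -0.064), so the numbers were not used to pair the samples. With 3 libraries per group these values cannot exclude a pairing. A replicate block called 1729 genes, 1 nuclear subunit gene, 14 of the other lists and 0 mitochondrial genes. No library correlated best with its own number.

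Of 285 log2 fold changes of mitochondrial genes under the alternatives, 256 kept direction and side of the threshold, 6 passed it and 23 changed sign. With 1 library left out, signs changed for mt-Nd1 (-0.031 to 0.32), below 0 without control replicate 1 or 3 or double cKO replicate 1, mt-Co1 (-0.0074 to 0.34), without control replicate 1, and mt-Co2 (-0.016 to 0.38), without control replicate 3. Signs changed without control replicate 2 for mt-Tl1 (-1.38 to 0.075), mt-Tm (-1.69 to 0.99), mt-Tn (-0.52 to 0.42), mt-Tc (-0.99 to 0.51), mt-Nd3 (-0.61 to 0.21) and mt-Nd6 (-0.23 to 0.099), and also without double cKO replicate 2 for mt-Tn. With no filter mt-Nd6 was at 0.0079. Without both control libraries with many detected genes the signs changed for mt-Tl1 (1.39), mt-Tm (1.90), mt-Tn (0.87), mt-Tc (1.29), mt-Nd6 (0.035) and mt-Te (0.48). Scaled to the mitochondrial sum they changed for mt-Nd1 (-0.11), mt-Co1 (-0.047), mt-Co2 (-0.018) and mt-Nd5 (-0.014). Lars2, at -0.072, changed sign with no filter (0.087), limma-voom (0.35), the replicate block (0.22), without both those controls (2.14) and in 3 of 6 fits with 1 library left out (-0.46 to 0.48).

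With 1 library left out, the difference in share ran from -0.0248 to 1.71 points for mt-Nd4, below 0 without control replicate 2, and from -0.633 to 0.484 for mt-Nd5, above 0 without control replicate 3 or double cKO replicate 1. The cause was not tested for any of these. The planned share of ribosomal RNA and the shares without those genes were not run, since those genes are not analysed here.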
